A study of Mus musculus with 24 samples.

Results

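Mice that lack Nrf2 were compared after reflux of mixed gastric and duodenal juice and after reflux of duodenal juice alone, on 6 of the 24 expression arrays of the study. All 6 arrays hold RNA of male C57BL/6J mice, 12 weeks old, of the genotype Nrf2-/-, after 4 weeks of reflux. Duodenal reflux and mixed reflux have 3 arrays each, described in the labels as biological replicates. The tissue is given as whole oesophagus for duodenal reflux and as oesophageal epithelium for mixed reflux, the only group of the study with that tissue label, although another label calls the source of every group epithelium and the protocol describes dissected oesophagi. The 6 arrays of wild type mice with the same 2 kinds of reflux were used to ask whether the difference depends on the genotype. Both groups compared carry the deletion. The kind of reflux cannot be told apart from the tissue label, nor from the single sample that stands for mixed reflux.

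The mouse oesophagus is lined by a keratinised squamous epithelium over a connective tissue with vessels and immune cells, and its muscle wall is largely skeletal, with smooth muscle in the thin layer beneath the mucosa and towards the stomach. Basal keratinocytes divide, and their daughters build desmosomes and a cornified envelope as they rise to the surface. Nrf2 is the transcription factor that induces detoxifying and antioxidant genes in response to oxidants and electrophiles, and its gene is Nfe2l2. Genes of the epithelium, of the stroma and of the muscle are therefore described separately below, since RNA of a stripped epithelium and of a whole oesophagus would differ in all of them.

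Levels are given as the log2 ratio of Cy5, the dye of the oesophageal RNA, over Cy3, the dye of a reference RNA from 11 mouse cell lines, so that 0 is the level of the reference. Levels of different genes on this scale cannot be compared with each other. The 3 mixed reflux arrays differed by no more than repeat spots of the same array, with a variance 0.902 to 1.26 times that of the repeat spots and correlations of 0.996 to 0.997. The pairs of arrays within the other groups had 2.96 to 91.9 times that variance. The 3 mixed reflux arrays were therefore counted as 1 sample, and their own spread gives no measure of differences between mice. Duodenal array 2 stood apart: its median Cy5 intensity was 85.3 against 190 and 153 on duodenal arrays 1 and 3, and 57.4% of its probes were well above background against 69.1% and 71.7%. It correlated at 0.882 and 0.883 with the others, which correlated at 0.988 with each other although they lay on different slides. Of 20553 genes tested, 2613 differed by more than 1 between array 2 and the mean of arrays 1 and 3, while 76 differed by more than 1 between arrays 1 and 3. Results include array 2 unless stated otherwise, and some are also given without it. A value given only with array 2 may differ without it. All 6 arrays were scanned on the same day, and duodenal array 3 shared a slide with the mixed arrays. On the probe used, the deleted gene Nfe2l2 read -3.54, -2.83 and -3.31 after duodenal reflux and -3.69 to -3.65 on the mixed arrays. Its wild type levels were 2.04 to 2.18 and 1.81 to 2.06. Another probe of the gene was lower still, with Nrf2-null means of -6.42 and -7.11. The remaining probe, at chr2:75529947-75530006 of build mm9, read -1.42, -0.54 and -1.27 after duodenal reflux. The wild type duodenal arrays read -1.20, -1.14 and -1.45 on it, so the genotypes overlapped there after duodenal reflux. On the mixed arrays they did not, at -1.43, -1.42 and -1.51 in Nrf2-null and -0.52, -1.29 and -0.81 in wild type mice.

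Only 3 of the 20553 genes passed an adjusted p of 0.05 in limma, which is 0.0146% of the genes tested, and all 3 were lower after mixed reflux. At an unadjusted p under 0.05 there were 2154 genes, of which 839 were higher and 1315 lower. The median difference over all genes was -0.04. With each array centred on its median, which put that median at 0.27, there were 4 calls, 3 higher and 1 lower, of which 1 was among the 3. Without duodenal array 2 the count was 21, with 5 genes higher and 16 lower, and the 3 genes remained among them. The count was 0 when the spread was taken from the 6 arrays alone. It was 16, with 9 higher and 7 lower, without wild type mixed array 2, which enters through the spread pooled over groups. Some other settings, given at the end, raised the count further. In 64.6% of genes the mixed reflux level lay outside the range of the 3 duodenal arrays, above it in 29% and below it in 35.6%.

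Edn2, which encodes endothelin 2, a vasoactive peptide also made by epithelia, had the smallest p-value. Its level was 2.75, 2.72 and 2.83 on the 3 duodenal arrays and 0.49, 0.42 and 0.50 on the mixed arrays. The groups did not overlap, and duodenal array 2 was no exception. The difference was -2.30 ± 0.20 (SE, adjusted p = 4.92e-05 in limma), and without array 2 it was -2.32 (adjusted p = 0.000227). Within the slide that held both groups the difference was -2.36. In wild type mice Edn2 was also lower after mixed reflux, at 1.19, 1.12 and 0.98 against 3.05, 3.03 and 3.21, a difference of -2.00 ± 0.14 (adjusted p = 2.02e-06). The genotypes' differences differed by -0.30 ± 0.25, which did not pass the test (adjusted p = 0.573). In the Nrf2-null groups without reflux and with gastric reflux the level was 1.22 to 1.63 and 0.30 to 0.64. In the wild type groups without and with gastric reflux it was 0.72 to 0.91 and -0.17 to 0.29. The duodenal arrays were thus the highest of their genotype in both genotypes. The probe lies at chr4:119839682-119839741 of build mm9.

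Bhlha15, which encodes MIST1, a transcription factor of secretory cells, read -0.10, -0.11 and -0.10 after duodenal reflux and -2.26, -2.19 and -2.38 after mixed reflux. The difference was -2.18 ± 0.32 (adjusted p = 0.0343 in limma), and in wild type mice it was -0.41 ± 0.23 (adjusted p = 0.458). The difference between the genotypes, -1.77 ± 0.39, passed the test (adjusted p = 0.0324). This rests on one probe at chr5:144955175-144955234 of build mm9. Another Bhlha15 probe, at chr5:144952447-144952506, read 0.39, 0.44 and 0.55 after duodenal reflux and 0.42, 0.58 and 0.61 after mixed reflux. The probes disagree, and the gene as a whole cannot be called lower. Under the mean of both probes the adjusted p was 0.124. Probes also disagree for other genes named below. Aspg, Lama3, Tjp1, Cdh5, Cdk1, Cs, Fasn and Tnnt3 each have 1 other probe, and it differed with the opposite sign. Dsc2, Trp63, Acta2, Myc, Nrg1 and Pdia6 each have more than 1 other probe, of which 1 had the opposite sign.

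The third was TC1667568, a transcript cluster without a gene name, whose probe lies at chr11:101306329-101306388 of build mm9. It read 0.53, 0.63 and 0.66 after duodenal reflux against -0.89, -1.07 and -1.12 after mixed reflux, a difference of -1.63 ± 0.25 (adjusted p = 0.042 in limma). Wild type mice showed the opposite, 0.75 ± 0.18 higher after mixed reflux (adjusted p = 0.0318), and the genotypes differed by -2.38 ± 0.31 (adjusted p = 0.00108). Both Bhlha15 and TC1667568 lost their call with the slide as a block and without duodenal array 1 or array 3, with adjusted p-values of 0.0579 to 0.162, while Edn2 kept it. Just outside the threshold, with adjusted p-values from 0.0634, lay genes that were higher after mixed reflux: Mrgpra2b, a receptor gene of the Mrgpr family, with a difference of 1.18 ± 0.19, and Cdc45, described further on. Pbp2, a gene of the phosphatidylethanolamine-binding protein family, followed with 2.36 ± 0.42 (adjusted p = 0.0697). All 3 passed the test without array 2. Mrgpra2b was well above background on 1 of the 3 duodenal arrays and Cdc45 on 2, against all 3 mixed arrays, so their duodenal levels are partly those of the background. Among the other genes named, Dsc3, Fpr2, Siglecf, Tie1, Cpa1 and Pnlip were well above background on 2 duodenal arrays and Prss2 on 1.

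**Figure D1:**
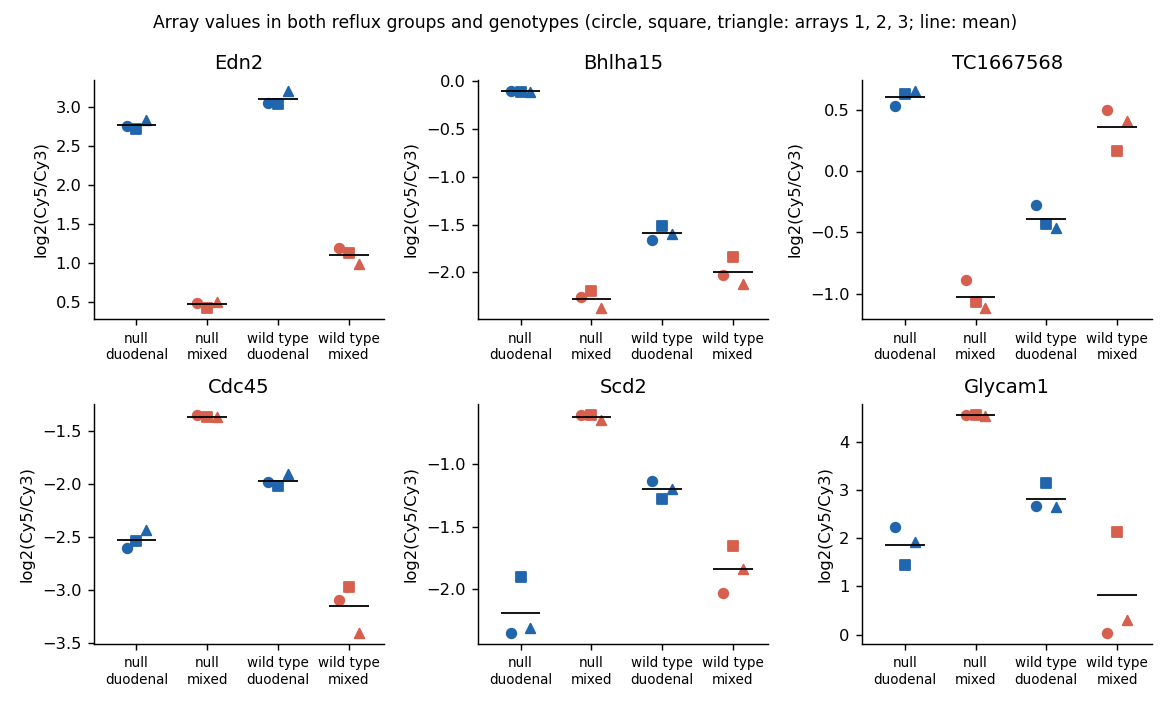
Levels of 6 genes as log2(Cy5/Cy3) on the arrays of duodenal (blue) and mixed (red) reflux in both genotypes, with lines at the group means. Edn2 is lower after mixed reflux in both genotypes, while Cdc45, Scd2 and Glycam1 are above all duodenal arrays in Nrf2-null mice and below them in wild type mice.

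Genes of the squamous epithelium were well above the reference in both groups. None of the 27 squamous differentiation genes tested was called, with a median difference of -0.24, and -0.09 without duodenal array 2. Krt5, a keratin of basal cells, read 4.22, 5.55 and 4.24 after duodenal reflux and 4.06 to 4.17 after mixed reflux. Krt4, a keratin of the suprabasal layers, read 6.96, 8.38 and 7.10 against 6.61 to 6.73. For both keratins duodenal array 2 was the high one, and the mixed arrays lay just below arrays 1 and 3. Trp63, the master regulator of squamous epithelium, differed by -0.45 ± 0.32, Krt14 by -0.50 ± 0.54 and Krt13 by -0.42 ± 0.45, and none passed the test. All 3 changed sign with each array centred on its median, to 0.24, 0.06 and 0.35.

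Genes of the cornified envelope, the last product of the squamous layer, lay mostly below the duodenal arrays. Of 31 cornified envelope genes 23 lay below all 3 duodenal arrays and 5 above, against 35.6% and 29% of all genes. The median difference of the 31 was -0.71, or -0.39 without array 2. Less the median of all genes it was -0.68, and -0.32 with each array centred on its median. None of the 31 was called, and 3 had an unadjusted p under 0.05. The largest difference in the list was upward, with Tgm5 at 1.78. The members with the smallest p were Aspg, an asparaginase of the upper epidermis, at -1.01 ± 0.37, and Sprr1b, a small proline-rich envelope protein, at -1.13 ± 0.52. Sprr1b read 4.40, 6.16 and 4.61 after duodenal reflux and 3.93 after mixed reflux on average, and without array 2 its difference was -0.58. Of 17 stress keratins and alarmins, genes of wounded and inflamed epithelium, 13 had a difference below 0 and the median was -0.32. The alarmin S100a9 differed by -0.84 ± 0.48 and the stefin Stfa1 by -0.77 ± 0.36.

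The basal and junctional genes showed no common direction. The 22 basal keratinocyte and hemidesmosome genes had a median difference of 0.06, or -0.07 without array 2, with 12 above 0. Lama3, a chain of the laminin that anchors the epithelium, differed by 1.05 ± 0.30 (adjusted p = 0.319 in limma), and Fat1, a large cadherin, by 0.70 ± 0.34. The 22 desmosome and adherens junction genes had a median of -0.17. Within them the desmocollins differed in sign, Dsc3 at 1.28 ± 0.47 and Dsc2 at -0.83 ± 0.30. The 16 tight junction genes had a median of 0.01, with Cldn4 at -0.79 ± 0.31 and Tjp1 at 0.70 ± 0.35. The 16 pan-epithelial genes had a median of -0.45, or -0.19 without array 2, and 11 lay below all duodenal arrays, against 35.6% of all genes. Among the pan-epithelial genes the protease inhibitor Spint2 differed by -0.75 ± 0.28 and the protease Prss8 by -0.59 ± 0.22. The largest differences in the squamous list were upward: Mal, a membrane raft protein of differentiated epithelium, read 0.72, 0.80 and 0.72 against 2.89, 2.95 and 3.03, a difference of 2.21 ± 0.54 (adjusted p = 0.185). Tmprss11b, a serine protease of the squamous surface, read 1.66, 0.64 and 1.83 against 2.82 to 2.89. Both lay above all duodenal arrays and neither was called.

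**Figure D2:**
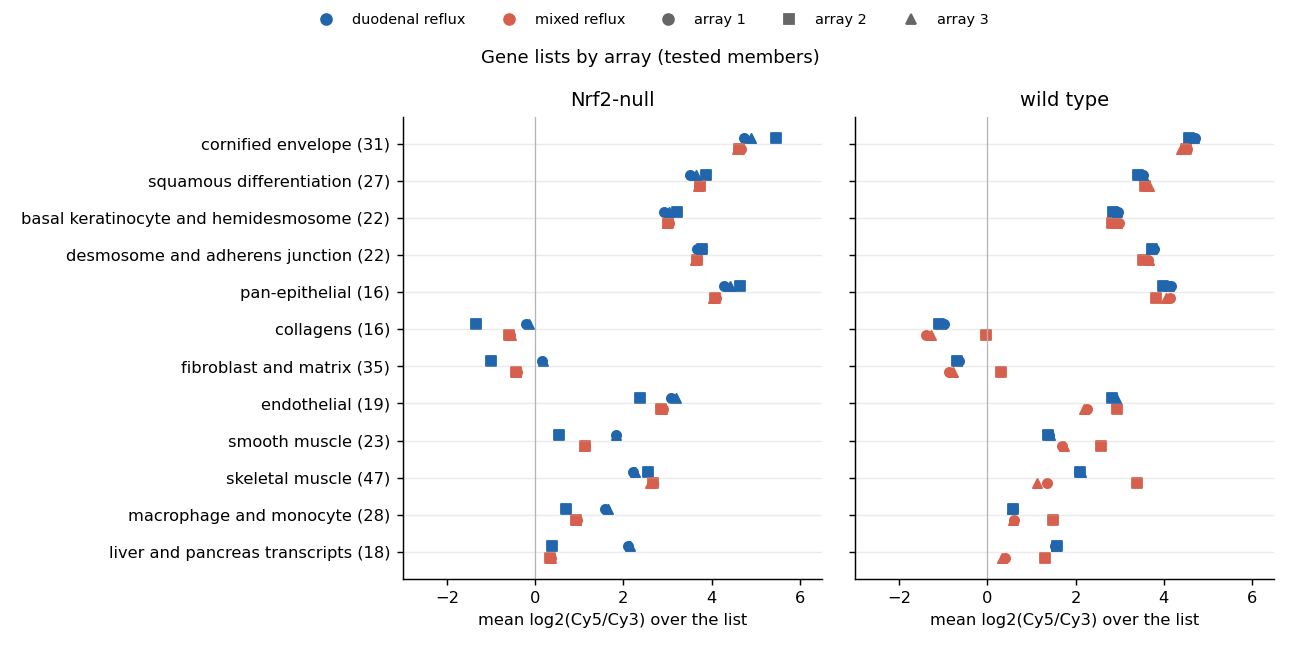
Mean log2(Cy5/Cy3) over the tested members of 12 gene lists (numbers in brackets) on each array of duodenal (blue) and mixed (red) reflux, Nrf2-null on the left and wild type on the right. In Nrf2-null mice duodenal array 2 (blue square) is apart from arrays 1 and 3 in the stromal, muscle, macrophage and liver lists, and the skeletal muscle mean of the mixed arrays, 2.65, is above those of all duodenal arrays.

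Stromal genes were measured on the mixed arrays at levels within the range of the duodenal arrays. In bulk tissue fewer cells of a type and less RNA per cell cannot be told apart, and this holds for all lists here. The mean level of 16 collagen genes was -0.21, -1.33 and -0.14 on the duodenal arrays and -0.58 on the mixed arrays, between array 2 and the others. That of 35 fibroblast and matrix genes was 0.15, -1.01 and 0.18 against -0.43. The median differences were -0.09 and -0.26, and without array 2 they were -0.40 and -0.60, with 5 of the 35 fibroblast genes above 0. With each array centred on its median they were 0.46 and 0.35, against 0.27 for all genes under that scaling, so the direction of both lists turned. None of these genes was called. Lum, the proteoglycan lumican of fibroblasts, read 5.01, 2.88 and 5.15 against 3.61 on average, and Col1a1 read -1.72, -2.47 and -1.53 against -2.02. The members with the smallest p were the collagens Col8a1 at -0.96 ± 0.64 and Col18a1 at 0.69 ± 0.47 and, in the fibroblast list, Pi16 at -1.13 ± 0.53. The highest members were Col12a1 at 0.81 ± 0.79 and Cilp at 1.09 ± 1.13. The 19 endothelial genes had a median of -0.30, with Egfl7 at -0.89 ± 0.48 and the receptor Tie1 at 0.80 ± 0.43. Their mean was 3.09, 2.39 and 3.20 against 2.87, and the vessel markers Pecam1 and Cdh5 differed by 0.25 ± 0.49 and -0.32 ± 0.58.

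Skeletal muscle genes were as high on the mixed arrays as on the duodenal ones, although the tissue label of the mixed group is epithelium. The tissue label was not tested. The mean of 47 skeletal muscle genes was 2.65 after mixed reflux and 2.21, 2.57 and 2.27 on the duodenal arrays. The median difference was 0.21, or 0.32 without array 2, and none of the 47 was called. Above all duodenal arrays lay 20 of the 47 and below them 13, against 29% and 35.6% of all genes. Ckm, the muscle creatine kinase, read 5.09, 4.93 and 5.07 after duodenal reflux and 4.82, 4.69 and 4.62 after mixed reflux. Acta1, the skeletal actin, read 3.76, 3.77 and 3.95 against 4.46, 4.47 and 4.42. Ckm was thus below and Acta1 above all duodenal arrays, and both were far above the reference in either group. Atp2a1, the calcium pump of fast fibres, differed by 2.02 ± 1.10 and Mb, myoglobin, by -0.94 ± 0.63. Standard errors of muscle genes were wide, at 1.36 for Ckm and 1.63 for Acta1, since their levels varied between arrays of the other groups.

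Most smooth muscle genes lay within the range of the duodenal arrays. Of the 23 tested, 4 lay above all 3 arrays and 4 below them, against 29% and 35.6% of all genes. The mean over the 23 genes was 1.82, 0.55 and 1.84 on the duodenal arrays and 1.12 after mixed reflux. The median difference was -0.07 with array 2 and -0.84 without it. Myh11, the smooth muscle myosin heavy chain, read 5.44, 3.37 and 5.57 against 4.87, 4.60 and 4.71, inside the duodenal range. Cnn1, the actin-binding calponin 1, read 4.75, 4.29 and 4.80 against 2.75, 2.72 and 2.73, below all 3 arrays, a difference of -1.88 ± 0.40 (adjusted p = 0.153 in limma). Tagln, transgelin, read 1.42, 0.14 and 1.40 against -0.72, -0.81 and -0.88, a difference of -1.79 ± 0.43 (adjusted p = 0.198) that passed the test without array 2 (-2.21, adjusted p = 0.0265). Both rose after mixed reflux in wild type mice, Cnn1 by 1.44 ± 0.28 and Tagln by 1.38 ± 0.30. The genotypes differed by -3.32 ± 0.49 for Cnn1 (adjusted p = 0.00327) and by -3.17 ± 0.52 for Tagln (adjusted p = 0.00732). The smooth muscle markers Des and Acta2 differed by -0.38 ± 0.68 and -0.82 ± 0.61 and were not called.

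Transcripts of the liver were measured in the oesophagus after duodenal reflux and were low after mixed reflux. Fabp1, the liver and intestinal fatty acid binding protein, read 6.43, 2.09 and 6.63 after duodenal reflux and 1.09, 0.99 and 0.92 after mixed reflux. Alb, albumin, read 4.50, 1.03 and 4.73 against 0.89, 1.00 and 0.96. Fgb, the fibrinogen beta chain, read 5.23, 1.63 and 5.47 against 0.90, 0.72 and 0.77. Duodenal array 2 was near the mixed level for all 3. None of the 18 liver and pancreas genes was called, and their median difference was -0.97. Without array 2 the median was -1.57. The differences of Fabp1, Fgb and Alb were -4.05, -3.31 and -2.47 with array 2 and -5.53, -4.55 and -3.66 without it. Leaving out array 2 takes away the duodenal array near the mixed level, so the larger differences are no separate support. The pancreatic enzyme genes Pnlip, Cpa1 and Prss2, of the same list, differed by -0.02, -0.02 and 0.16.

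Liver transcripts were also high after gastric reflux. Alb was at -0.09 to 0.11 in Nrf2-null mice without reflux and at 4.05 to 4.75 with gastric reflux. The wild type levels were 4.08 to 4.33 after duodenal reflux and 1.30, 3.60 and 1.22 after mixed reflux, a difference of -2.17 ± 0.71 that did not pass the test (adjusted p = 0.13 in limma). Array 2 was the high one of the wild type mixed group. The source of these transcripts was not tested.

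**Figure D3:**
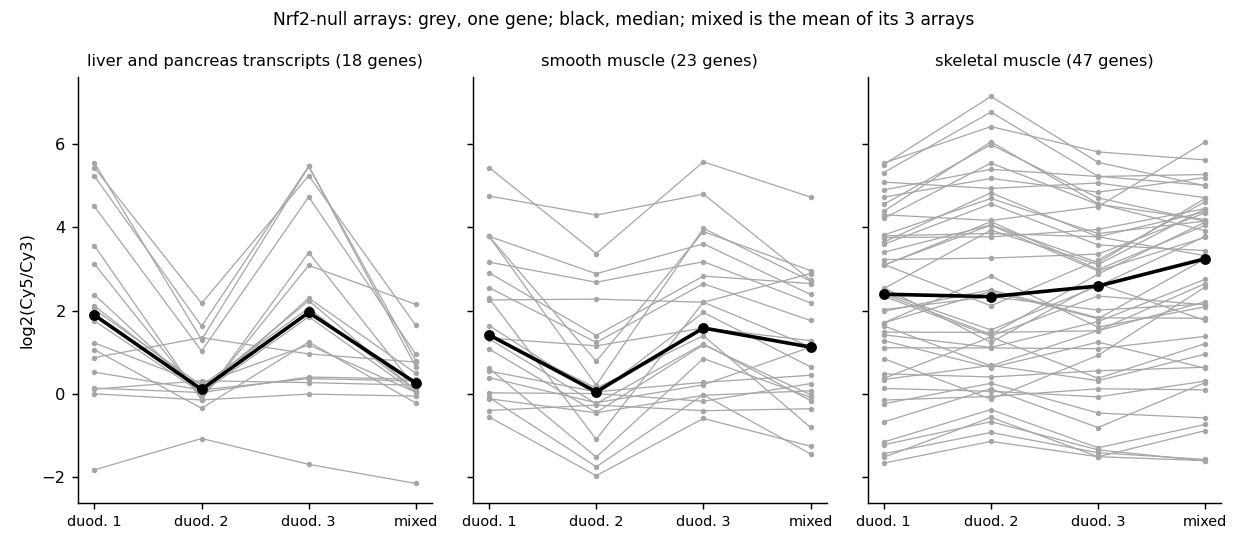
Levels as log2(Cy5/Cy3) of the tested liver and pancreas, smooth muscle and skeletal muscle genes on the 3 Nrf2-null duodenal arrays and as the mean of the mixed arrays (grey lines, single genes; black line, median). The median of the liver genes is higher on duodenal arrays 1 and 3 than on array 2 and after mixed reflux, while the median of the skeletal muscle genes is well above 0 in all 4 columns.

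Genes of DNA replication lay higher after mixed reflux, against the direction seen in wild type mice. Of 36 tested, 32 had a difference above 0, with a median of 0.52 against -0.04 over all genes. Above all 3 duodenal arrays lay 26 of the 36, against 29% of all genes. None of the 36 was called, and 15 had an unadjusted p under 0.05, all higher. The median was 0.56 without array 2 and 0.57 within the shared slide. With each array centred on its median it was 1.17, which is 0.90 above the median of all genes under that scaling, 0.27. In wild type mice 20 of the 36 fell after mixed reflux and none rose, with a median of -0.92, against 2.69% of all genes called in either direction there. The difference between the genotypes passed the test for 17 of the 36, all more positive in Nrf2-null mice, against 1.71% of all genes. It did so for 18 without duodenal array 2, for 19 without wild type mixed array 2, for 11 within the slide and for 7 with the slide as a block.

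Cdc45, a part of the replicative helicase, had the smallest p of the list. It read -2.60, -2.54 and -2.44 after duodenal reflux and -1.35, -1.38 and -1.37 after mixed reflux, a difference of 1.16 ± 0.19 (adjusted p = 0.0634 in limma, 0.0478 without array 2). The wild type arrays read -1.98, -2.02 and -1.91 against -3.09, -2.97 and -3.40, and Cdc45 fell by 1.18 ± 0.14 (adjusted p = 0.000427). The genotypes differed by 2.34 ± 0.24 (adjusted p = 0.000209). In the groups without reflux Cdc45 lay between -2.98 and -2.48, so the Nrf2-null mixed arrays and the wild type duodenal arrays were above them. Mcm3, Mcm5 and Mcm6 encode subunits of the helicase ring. Mcm6 read -2.46, -2.13 and -2.50 against -1.43, -1.50 and -1.45, and its genotype difference was 2.10 ± 0.26 (adjusted p = 0.00108). For Mcm3 that difference was 2.52 ± 0.35 and for Mcm5 1.63 ± 0.23 (adjusted p = 0.00175 and 0.00293). Rfc3, of the clamp loader, read -2.03, -2.12 and -2.02 against -1.19, -1.14 and -1.12. Pcna, the sliding clamp, differed by 0.93 ± 0.46, and its genotype difference of 1.87 ± 0.56 did not pass the test (adjusted p = 0.104). Rrm2, of ribonucleotide reductase, and the E2F genes E2f1 and E2f8 had differences below 0 in Nrf2-null mice, and none of these passed the test there.

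The E2F factors, which drive replication genes at the start of the S phase, bind words such as TTTCCCGC, TTTCGCGC, TTTGCCGC and TTTGGCGC. These 4 words were searched on both strands of the 250 bases before the annotated start of each gene in RefSeq sequences of build GRCm38.p6. Promoters were found for 30 of the 36 replication genes, and 7 of them (23.3%) held a word, against 1.91% of the 27025 genes in that table. That share follows from the choice of the list and does not depend on the differences measured here. The part of E2F factors in those differences was not tested. The promoters shown were chosen for holding a word and, among those 7, for the 3 largest differences in Nrf2-null mice. They run 5′ to 3′ along the gene's strand, with the words in capitals, and overlapping words are merged.
Rfc3: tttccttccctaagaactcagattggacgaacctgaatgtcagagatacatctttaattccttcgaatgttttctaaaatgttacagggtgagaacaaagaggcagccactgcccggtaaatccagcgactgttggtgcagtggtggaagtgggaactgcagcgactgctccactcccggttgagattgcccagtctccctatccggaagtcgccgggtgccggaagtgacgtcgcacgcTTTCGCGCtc
Mcm6: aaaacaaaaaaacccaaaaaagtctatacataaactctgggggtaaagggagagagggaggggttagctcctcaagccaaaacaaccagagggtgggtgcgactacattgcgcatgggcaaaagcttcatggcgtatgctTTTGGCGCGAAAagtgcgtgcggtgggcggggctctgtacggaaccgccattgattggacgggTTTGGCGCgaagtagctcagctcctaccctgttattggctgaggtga
Mcm5: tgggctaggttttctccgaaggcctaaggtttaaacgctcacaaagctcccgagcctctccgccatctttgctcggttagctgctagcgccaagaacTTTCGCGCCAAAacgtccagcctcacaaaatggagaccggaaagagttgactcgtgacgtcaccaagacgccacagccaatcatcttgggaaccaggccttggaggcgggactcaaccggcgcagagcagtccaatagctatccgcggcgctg
The Rfc3 stretch is chr5:151651209-151651458 on the minus strand, and its word starts 10 bases before the start. The Mcm6 stretch is chr1:128359706-128359955 on the minus strand, and its 3 words start between 110 and 47 bases before the start. The Mcm5 stretch is chr8:75109259-75109508 on the plus strand, and its 2 overlapping words start 153 and 149 bases before the start. A word is a match of letters and no measured binding. The promoters of Cdc45, Mcm3 and Pcna, genes with larger differences than Rfc3, hold none of the words in this window.

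**Figure D4:**
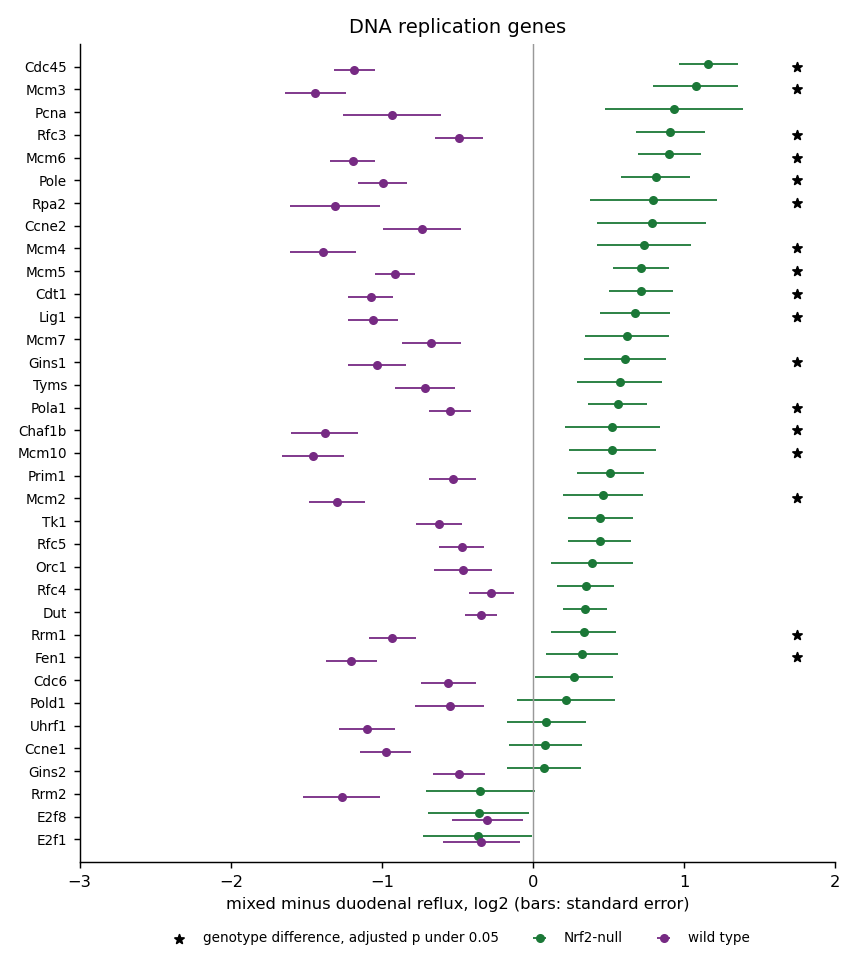
Difference between mixed and duodenal reflux in log2 with its standard error for 35 of the 36 DNA replication genes, in Nrf2-null (green) and wild type (purple) mice; stars mark the 17 genes whose genotype difference had an adjusted p under 0.05. In Nrf2-null mice 32 of the points lie above 0, and in wild type mice all points lie below it.

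The 34 genes of mitosis lay in the same direction with smaller differences. Their median was 0.25, 26 were above 0 and 19 lay above all duodenal arrays, against 29% of all genes. Tpx2, a spindle assembly factor, differed by 0.67 ± 0.23, and Cdk1, the mitotic kinase, by 0.44 ± 0.16 with a genotype difference of 0.93 ± 0.20 (adjusted p = 0.0272 in limma). The medians of the squamous, basal and pan-epithelial genes were -0.24, 0.06 and -0.45, and their part in the result was not tested.

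The difference between the kinds of reflux depended on the genotype for 352 genes (adjusted p under 0.05 in limma), 230 of them more positive in Nrf2-null mice and 122 more negative. For 348 of the 352 the differences in the genotypes had opposite signs, against 59.1% of 20552 genes; genes selected for a large genotype difference will more often have them. The files hold no means to check the reflux labels of the 2 Nrf2-null groups, and every difference between mixed and duodenal reflux here takes them as given. The comparison in wild type mice called 552 genes, 192 higher and 360 lower (84 and 75 with each array centred on its median), and 238 of the 352 were among them, while 2 of the 352 were called in Nrf2-null mice. Over 20552 genes the differences in the genotypes correlated at -0.358, a description across genes of 2 comparisons that share no array. The Nrf2-null mixed group as a whole correlated at 0.959 with wild type duodenal reflux and at 0.933 with Nrf2-null duodenal reflux over 20549 genes, and 640 and 1431 genes differed by more than 1. With duodenal arrays 1 and 3 alone the latter values were 0.951 and 897. These 2 arrays themselves correlated at 0.964 with wild type duodenal reflux, with 526 genes that differed by more than 1. The 3 wild type duodenal arrays share the scan day with the 6 arrays but no slide.

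Among the genes that differed most between the genotypes, those with negative values included markers of resident macrophages. Cd163, the haemoglobin scavenger receptor, read 4.84, 4.90 and 5.01 after Nrf2-null duodenal reflux and 3.28, 3.19 and 3.15 after mixed reflux. Wild type arrays of Cd163 read 1.44, 1.48 and 1.27 against 4.78, 4.76 and 4.44, and in all 4 groups without reflux or with gastric reflux its mean was 4.37 to 4.73. The low group was thus wild type duodenal reflux, and Nrf2-null mixed reflux lay above it and below the other groups' means, although 1 array of Nrf2-null gastric reflux read 3.29. Retnla, a product of alternatively activated macrophages, read 5.52, 3.69 and 5.86 after Nrf2-null duodenal reflux against a mean of 3.71 after mixed reflux, which duodenal array 2 matched. Its wild type means were 1.87 and 5.43. F13a1, coagulation factor XIII A, read 3.18, 1.63 and 2.91 against 0.85, 0.77 and 0.82. Clec10a, a lectin of such macrophages, read 4.80, 4.40 and 4.76 against 2.84, 2.82 and 2.66. All 4 passed the test of the genotype difference, out of 28 macrophage and monocyte genes, against 1.71% of all genes, and none passed in Nrf2-null mice alone. The highest member of that list was Lyve1, a hyaluronan receptor of some resident macrophages and of lymphatic vessels, at 0.84 ± 1.14. Of other leukocyte markers, Cd68 differed by 0.26 ± 0.25 and Ptprc, carried by all leukocytes, by 0.18 ± 0.69.

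Genes with positive genotype differences included the following. Akr1c18, a ketosteroid reductase, read 1.29, 0.79 and 1.18 after Nrf2-null duodenal reflux and 3.41, 3.42 and 3.26 after mixed reflux. Its wild type levels were 4.06, 4.26 and 4.30 against -0.16, 2.47 and -0.15. Glycam1, a mucin-like glycoprotein, read 2.22, 1.45 and 1.93 against 4.56, 4.56 and 4.53, a difference of 2.68 ± 0.52 (adjusted p = 0.0815 in limma). In both genotypes without reflux or with gastric reflux Glycam1 had means of -0.01 to 0.12. Because an offset was added to the intensities, a gene near background in both dyes would also read near the reference. Whether this was so for Glycam1 was not tested. The same limit applies in wild type mixed reflux to Akr1c18 at -0.16 and -0.15 and to the lowest Glycam1 level, 0.04. Idi2, an isopentenyl diphosphate isomerase, read 2.17, 2.74 and 2.38 against 4.23, 4.07 and 4.16. Gabrp, the pi subunit of the GABA-A receptor, read 2.28, 0.79 and 2.36 against 3.97, 3.96 and 3.96. Car2, carbonic anhydrase 2, which makes bicarbonate, read 1.51, 1.19 and 1.68 against 3.40, 3.43 and 3.44. For each of these the mixed arrays lay above all duodenal arrays in Nrf2-null mice. In wild type mice all 3 mixed arrays lay below the duodenal arrays, and array 2 was the highest of them for Akr1c18, Glycam1, Idi2 and Car2 but not for Gabrp.

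**Figure D5:**
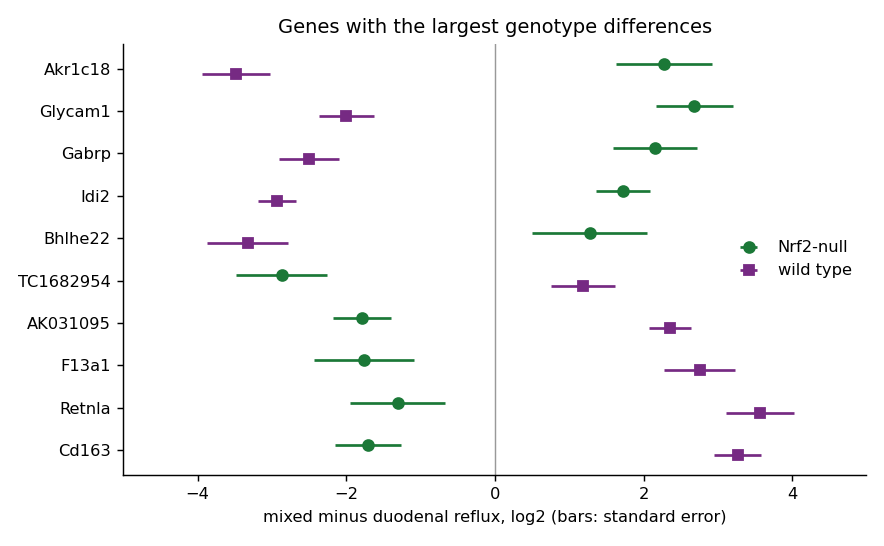
Difference between mixed and duodenal reflux in log2 with its standard error for the 5 genes with the most positive and the 5 with the most negative genotype differences, in Nrf2-null (green circles) and wild type (purple squares) mice. The 2 genotypes lie on opposite sides of 0 for all 10 genes, from 2.28 against -3.48 for Akr1c18 to -1.71 against 3.26 for Cd163.

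No inflammatory gene of the lists was called in Nrf2-null mice. The 21 neutrophil genes had a median of 0.32, or 0.19 without array 2. Of the 21, 12 lay above all duodenal arrays, against 29% of all genes. The 12 include the collagenase Mmp8 at 0.95 ± 0.51 and the formyl peptide receptor Fpr2 at 0.88 ± 0.47. The 28 macrophage and monocyte genes had a median of -0.35 and the 17 genes of antigen presentation and dendritic cells one of -0.32. Without array 2 these medians were -0.58 and -0.40. In the latter list Batf3, a dendritic cell factor, differed by -1.05 ± 0.28 and H2-DMb1 by -1.31 ± 0.46, while the highest member was H2-Aa at 1.24. The 15 mast cell and eosinophil genes had a median of 0.13, with 10 above 0, and the highest was the mast cell protease Cpa3 at 0.89 ± 0.81. Mcpt4, the protease of connective tissue mast cells, read 3.39, 4.40 and 3.28 against 1.98, 1.78 and 1.91, below all duodenal arrays (-1.80 ± 0.43, adjusted p = 0.183 in limma). Siglecf, of eosinophils, differed by 0.88 ± 0.24 and Pf4, of platelets and some macrophages, by -1.16 ± 0.51. The 20 chemokine and colony-stimulating factor genes had a median of -0.32. Among them Ccl20, which attracts CCR6-bearing cells, differed by -0.77 ± 0.32, and in wild type mice by -1.48. Ccl24, an eosinophil attractant, differed by -1.16 ± 0.46, and its genotype difference was -2.89 ± 0.56 (adjusted p = 0.0154). The 26 NF-kB feedback and adhesion targets had a median of -0.28, with Ltb at -1.03 ± 0.28 and Tnf at -0.56 ± 0.24. Of these 26, 5 fell in wild type mice, against 2.69% of all genes called there in either direction.

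Cytokines of the interleukin families gave values on both sides of 0. The 20 genes of the interleukin 1 family had a median of -0.08, with the inhibitor Il18bp the lowest at -1.17 ± 0.35 and Il1a, interleukin 1 alpha, the highest at 1.97 ± 1.08. The 23 genes of the interleukin 6 and 20 families and their receptors had a median of 0.12. Il23a, the p19 subunit of interleukin 23, read 1.21, 0.29 and 1.27 against 1.53, 1.88 and 1.79, and Il20ra, a receptor of the interleukin 20 family, read 1.64, 2.61 and 1.63 against 2.81, 2.84 and 2.86. Both fell after mixed reflux in wild type mice, by 1.12 ± 0.20 and 2.09 ± 0.34. Their genotype differences, 1.94 ± 0.35 and 2.96 ± 0.59, passed the test (adjusted p = 0.00895 and 0.0165 in limma). Il10ra differed by -0.85 ± 0.39. Of the immediate early genes Myc differed by -0.79 ± 0.26 and Klf6 by -0.69 ± 0.23, and the median of the 29 was 0.00. Nrg1, an EGF family ligand, differed by 0.85 ± 0.38, and 13 of the 15 genes of that family were above 0. Timp1, an inhibitor of metalloproteinases, differed by -0.88 ± 0.36.

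Most genes of the TCA cycle and of oxidative phosphorylation lay above all 3 duodenal arrays, against 29% of all genes. Of 18 genes of the TCA cycle 14 lay above all 3, with a median of 0.57, or 0.50 without array 2. Cs, citrate synthase, differed by 0.57 ± 0.24 and Suclg2, a succinyl-CoA ligase subunit, by 0.97 ± 0.45. Of 46 genes of oxidative phosphorylation 28 lay above all 3, and the median of 0.23 was 0.10 without array 2. Atp5a1 and Atp5b, of the ATP synthase, differed by 1.12 ± 0.36 and 0.83 ± 0.29. The mean of the skeletal muscle genes, of a tissue rich in these enzymes, was 2.65 after mixed reflux against 2.21 to 2.57, and its part in this was not tested. Of the 34 hypoxia and glycolysis genes 27 had a difference above 0 and 16 lay above all 3, with Eno1, enolase 1, at 0.97 ± 0.29 and Ankrd37 at 1.02 ± 0.32. None of these was called.

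Of 30 genes of sterol and fatty acid synthesis 22 were above 0, with a median of 0.44, or 0.35 without array 2. Above all duodenal arrays lay 16 of the 30, against 29% of all genes. Scd2, a stearoyl-CoA desaturase, read -2.35, -1.90 and -2.31 against -0.61, -0.61 and -0.65, a difference of 1.57 ± 0.29 (adjusted p = 0.0815 in limma, 0.0478 without array 2). The wild type difference was -0.64 ± 0.21, and the genotypes differed by 2.21 ± 0.36 (adjusted p = 0.00614). Fasn, fatty acid synthase, differed by 0.88 ± 0.26. The 27 genes of the unfolded protein response had a median of -0.01, with the chaperone Dnajb9 at -0.96 ± 0.34 and the disulfide isomerase Pdia6 at 0.59 ± 0.20. The sodium channel subunit Scnn1g differed by 1.42 ± 0.53, the retinol carrier Rbp4, also a liver product, by -2.33 ± 0.92, and the clock gene Per2 by -1.13 ± 0.37.

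Targets of Nrf2 were compared within mice that lack it, while the genotype differences given here also draw on wild type mice. Of 46 tested 30 were above 0, with a median of 0.22, or 0.05 without array 2. Above all duodenal arrays lay 19 of the 46, against 29% of all genes. None of the 46 was called. Gsta3, a glutathione transferase, read -1.85, -2.06 and -1.93 against -3.13, -3.22 and -3.09, below all 3 arrays, a difference of -1.20 ± 0.31 (adjusted p = 0.258 in limma). Wild type levels of Gsta3 were higher, at 0.05 to 0.26 after duodenal and 0.21 to 0.46 after mixed reflux. Gstm2, another transferase, read 0.84, 1.15 and 0.86 against 0.29, 0.17 and 0.25. It rose in wild type mice by 1.31 ± 0.20 after mixed reflux, and its genotype difference was -2.03 ± 0.35 (adjusted p = 0.00895). Akr1c18, on the same list, differed the other way, as given above. Gstm2 and Akr1c18 were the only members of the 46 whose genotype difference passed the test, against 1.71% of all genes.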

How the data were processed

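Oesophageal RNA in Cy5 was hybridised with a reference pool in Cy3 on 2-colour Agilent arrays. Per the file headers, the deposited scanner files hold spot intensity and a log10 ratio from software 10.7.3.1 with build mm9, or 10.5.1.1 with mm7 on 2 arrays. Feature Extraction 9.1 of Agilent is named in the submitters' processing notes. The authors' deposited value table was read as log2, since its slope on the deposited log10 ratio was 2.68 to 3.14; its direction is that of Cy5 over Cy3, and its centring is unknown. Intensities were background-corrected with normexp (offset 50), normalised by loess, and fitted with limma 3.58.1 in R 4.3.3 over 22 samples of 8 groups, leaving 14 residual degrees of freedom, with Benjamini-Hochberg adjustment over 20553 genes. The 3 Nrf2-null mixed arrays were averaged to 1 sample. The number of arrays limits the precision. On simulated data of this comparison with 15372 genes, 26% of genes changed by 1, 62% of those changed by 2 and 90% of those changed by 3 (log2) were recovered, with 12 false calls. Named genes are, by rule, the called genes, the 2 of smallest p in each list without calls, the defining markers, and the 5 highest and 5 lowest genotype differences. Other genes were chosen after their values were seen. The members and lists were chosen with earlier results of these data known. Alternatives covered background, normalisation (each array centred on its median among them), filters, probes, blocks and left-out arrays. Results on some genes are not reported here.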

Additional observations from a re-analysis of the deposited data

Results flagged for a closer look

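An interaction term in limma, which tests whether mixed against duodenal reflux differs between Nrf2-null and wild type mice, passed an adjusted p of 0.05 for 352 genes. The genes with the most positive values, higher after mixed reflux in Nrf2-null mice and lower in wild type mice, were Akr1c18 at 5.76, Glycam1 at 4.68, Gabrp at 4.65, Idi2 at 4.65 and Bhlhe22 at 4.60 (log2). The genes with the most negative values were Cd163 at -4.97, Retnla at -4.88, F13a1 at -4.52, the transcript AK031095 at -4.14 and the transcript cluster TC1682954 at -4.05. Bhlhe22 read 4.93, 3.19 and 4.79 on the Nrf2-null duodenal arrays and 4.19, 4.64 and 4.61 on the wild type ones, and its value changed sign in the authors' deposited table. TC1682954 read 0.82, 2.12 and 0.74 on the Nrf2-null duodenal arrays, so duodenal array 2 was the high one. No explanation was tested.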

How the results depend on the processing

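Leaving out the 2 Nrf2-null arrays of low Cy5 signal and leaving out wild type mixed array 2 were chosen after seeing the data. The 3 calls between mixed and duodenal reflux became 5 with local backgrounds as read, with no background correction and with no filter on dim probes, 7 with an offset of 0, 16 with the software's log ratio and 6 in the authors' deposited table. They became 1 with the mean of all probes, with the slide as a block and within the slide, 252 with the scan day as a block, and 0 with the 6 arrays or the Nrf2-null groups alone. Without these low-signal arrays 29 genes were called higher and 76 lower, and the total was 1 to 21 with 1 array left out, lowest without duodenal array 1 and highest without duodenal array 2, with 7 without mixed array 3 and 16 without wild type mixed array 2. With the mixed arrays as 3 samples there were 2213 calls, and 1801 with the replicate number as a block. Deviations of same-numbered duodenal and mixed arrays correlated at -0.03, -0.00 and 0.07. The mixed arrays differed by no more than repeat spots, so these values cannot show whether the numbers share a pairing.

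The 352 genotype differences became 155 with each array centred on its median, 221 with local backgrounds, 201 in the authors' deposited table, 85 with the slide as a block, 110 within the slide, 1321 with the scan day as a block, 232 without the arrays of slide 1 and 1669 without these low-signal arrays. With the mixed arrays as 3 samples they were 2765, and 2437 with the replicate block. With 1 array left out they ranged from 208 without duodenal array 1 (211 without array 3) to 709 without wild type mixed array 2. The 17 replication genes became 10 with median centring, 7 with the slide as a block, 11 within the slide, 30 and, with the replicate block, 29 with the mixed arrays as 3 samples, and 31 without these low-signal arrays.

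List medians less that of all genes moved as follows. Squamous genes were at -0.0083 and replication genes at 0.90 with median centring. Basal genes were at -0.27 with the software's log ratio, -0.23 in the authors' deposited table, -0.11 with an offset of 0, -0.0626 with the slide as a block and -0.0627 within it. Endothelial genes were at 0.22 with the mean of all probes. Smooth muscle genes were at -0.89 with the slide as a block or within it and at -0.79 without these low-signal arrays, and ranged from -0.79 without duodenal array 2 to 0.0685 without array 3. Liver genes were at -2.48 among genes above background in both groups.

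Of 2874 values of 116 gene results under alternatives, 2628 kept their direction and side of the threshold, 188 gained and 32 lost a call, and 26 changed sign. With median centring those were Stfa1 (0.0024), Dsc2 (0.0335), Krt14 (0.0629), Trp63 (0.24), Krt13 (0.35), Col1a1 (0.44), Cdh5 (0.11), Myh11 (0.32), Des (0.26), Ckm (0.23), Myh4 (0.44) and Nfe2l2 (0.20). With the mean of all probes they were Trp63 (0.75), Cdh5 (0.20), Tnnt3 (-0.21) and Pdia6 (-0.0831). In the authors' deposited table they were Tmprss11b (-0.46) and Bhlhe22 (-0.59, and -0.43 for the genotype difference). Pecam1 was at -0.33 with the slide as a block and within it and at -0.23 without these low-signal arrays, and ranged from -0.23 without duodenal array 2 to 0.54 without array 3. Myh11 ranged from -0.78 without duodenal array 2 to 0.32 without array 3, with 0.25 without array 1, and Col1a1 from -0.40 without array 2 to 0.0689 without array 3. The cause was not tested.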
